A study of Mus musculus with 6 samples.

Results

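Complex IV of the respiratory chain, cytochrome c oxidase, was examined through its paired isoforms in TRAP-seq data of the mouse choroid plexus (ChP), the secretory epithelium of the brain ventricles. The members were the 10 genes Cox4i1, Cox4i2, Cox6a1, Cox6a2, Cox6b1, Cox7a1, Cox7a2, Cox7a2l, Cox8a and Cox8b, taken by symbol from a table of 24354 gene names. They were singled out because Cox8b was listed in adult samples and not in E16.5 samples, so that the levels of Cox8b and the adult-to-embryo difference of every member are given as a description, without a p-value.

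The study used 3 adult samples (age 60 days) and 3 samples from embryos at embryonic day 16.5 (E16.5). All 6 came from the cross FoxJ1:cre x bacTRAP (EGFP:L10a), in which Cre recombinase under the Foxj1 promoter switches on a ribosomal protein L10a fused to EGFP, so that tagged ribosomes and the mRNA on them can be pulled down. No untreated, untagged or input sample was analysed here, and Foxj1 is active in ciliated cells in general, not in ChP epithelium alone. The study's methods describe each sample as tissue pooled from 3 mice or 3 litters. Levels are FPKM, fragment counts divided by transcript length and by the mapped reads of the sample. They are set per length, so a comparison between genes holds only as far as the assumed effective lengths do. This matters most for short transcripts such as Cox8b. A lower FPKM can come from fewer cells of a type or from less ribosome-bound RNA per cell, and these cannot be told apart in such samples.

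Complex IV takes electrons from cytochrome c and passes them to oxygen while pumping protons across the inner mitochondrial membrane. Its catalytic core is encoded by the mitochondrial genome, of which the table holds 0 genes, and small nuclear-encoded subunits surround that core and tune its activity and stability. Several of these small subunits exist as a broadly expressed form and a form known from heart and skeletal muscle, brown fat, lung or testis. Cox4i1, Cox6a1, Cox6b1, Cox7a2 and Cox8a are the broad forms. Cox4i2 is known from lung and from oxygen sensing, Cox6a2, Cox7a1 and Cox8b from heart and skeletal muscle, with Cox7a1 and Cox8b also in brown fat. Cox7a2l, a relative of the COX7A subunits, takes part in joining complex IV to complex III in supercomplexes.

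The COX8 pair carries the main contrast, so its sequences are shown first. The coding sequences below are those of the GENCODE vM21 transcripts Cox8a-201 (550 bases in all, 210 of them coding) and Cox8b-201 (360 bases, 213 coding), 5′ to 3′, and the capitals mark the longest run of bases that the aligned coding sequences share.
Cox8a: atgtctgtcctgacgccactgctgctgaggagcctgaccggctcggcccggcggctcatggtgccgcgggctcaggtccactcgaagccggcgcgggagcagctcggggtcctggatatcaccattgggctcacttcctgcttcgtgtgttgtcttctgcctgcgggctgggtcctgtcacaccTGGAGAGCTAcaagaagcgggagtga
Cox8b: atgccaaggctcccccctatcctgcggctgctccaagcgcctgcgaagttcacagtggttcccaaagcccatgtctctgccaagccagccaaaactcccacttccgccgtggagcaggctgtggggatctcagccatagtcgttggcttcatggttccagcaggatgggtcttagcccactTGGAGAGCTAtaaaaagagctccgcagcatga
The coding sequences were identical at 127 of 185 aligned positions (68.6%), and the longest shared run was 10 bases. Reads were 50 bases long, and 0 of the 311 windows of that length in the Cox8b transcript occurred in the transcript of another gene. The same held for Cox8a, with 0 of 617 windows shared. Cox8b is a single-transcript gene at chr7:140898945-140900446 on the minus strand (GRCm38), and Cox8a lies at chr19:7215153-7217616 on the minus strand.

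The start regions of the pair also differed. RefSeq promoters on GRCm38.p6 were matched for 7 of the 10 members, and the windows shown run from 250 bases before to 30 bases after the annotated start, on the gene's own strand. Capitals mark TATAAA and CAGCTG in Cox8b, and CCGGAA read on the opposite strand (TTCCGG) in Cox8a.
Cox8a: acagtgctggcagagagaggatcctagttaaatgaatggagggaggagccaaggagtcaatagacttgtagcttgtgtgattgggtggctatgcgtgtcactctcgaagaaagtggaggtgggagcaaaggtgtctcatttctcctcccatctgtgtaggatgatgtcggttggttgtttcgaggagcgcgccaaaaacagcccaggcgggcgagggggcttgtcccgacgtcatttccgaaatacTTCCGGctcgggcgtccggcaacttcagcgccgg
Cox8b: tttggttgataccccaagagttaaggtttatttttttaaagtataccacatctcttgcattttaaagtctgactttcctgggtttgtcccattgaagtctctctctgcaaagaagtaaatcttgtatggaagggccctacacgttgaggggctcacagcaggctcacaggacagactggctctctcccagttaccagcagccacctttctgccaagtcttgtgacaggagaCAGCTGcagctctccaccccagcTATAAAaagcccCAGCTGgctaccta
The Cox8a window is chr19:7217587-7217866 and the Cox8b window chr7:140900417-140900696. A search for 5 motifs on both strands covered all promoters of this length. Of 32851, TATAAA was in 13.1%, CAGCTG in 14.9%, CCGGAA in 14.2%, CCAAT in 36.1% and AAGGTCA in 4.46%. Cox8b held TATAAA at 1 place, 5 bases into the annotated transcript, and CAGCTG at 2 places, and it was the sole member of the 7 with either. CCGGAA was found at 1 place each in Cox8a, Cox6a1, Cox6b1 and Cox7a2, all broad forms. Cox8b held 1 CG dinucleotide and Cox7a1 6, against 15 to 29 in the other 5 matched members and a median of 6 over all promoters. These are matches of letters in a window and were not tied to the binding of any factor.

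The adult libraries were shallower than the embryonic ones, which bears on every value at or near 0. Depth was estimated from the spacing of low FPKM values, where each added read makes a step, at about 3820000, 8630000 and 3010000 reads in adult replicates 1 to 3 and 12900000, 15300000 and 14400000 reads in E16.5 replicates 1 to 3. Of the 11601 genes with a mean above 1 FPKM, 10.3% to 36.4% were listed at 0 in an adult sample and 3.68% to 4.02% in an E16.5 sample. Mir6236 held 32.7% to 51.7% of the summed FPKM in adult samples and 13.3% to 15.0% at E16.5. A listing of 0 may be a failed estimate: Ttr, which encodes transthyretin and defines ChP epithelium, was listed at 0 in all 3 E16.5 samples and at 20922 to 31302 FPKM in adults, and the housekeeping genes Ppia and Tbp were listed at 0 in adult replicates 1 and 3, with Gapdh at 1.05 FPKM in adult replicate 1. Of the 12 ChP epithelium markers, all were tested, 5 rose and 2 fell in adult, against 2.12% and 8.83% of all genes tested. The 5 include Ttr with its doubtful 0 at E16.5. Their summed level was 39677 to 54743 FPKM in adult against 3625 to 4096 FPKM at E16.5. Most of the adult sum was Ttr and Enpp2, the latter at 14886 to 18732 FPKM in adult against 242 to 303 FPKM at E16.5. The sum therefore says little of the other markers.

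Differences between ages were computed on log2(FPKM + 1) as adult minus E16.5 for the genes with a mean above 1 FPKM, with limma, and p-values were adjusted over all 11601 genes by the Benjamini-Hochberg method (called: adjusted p under 0.05). Of these genes, 1270 (10.9%) were called, 246 higher (2.12%) and 1024 lower (8.83%) in adult, and the median difference over all genes was −0.86, so that a member at −0.86 moved with the typical gene. The split was 348 higher and 660 lower under median-ratio scaling, 464 and 453 under quantile normalization and 119 and 3238 at the same summed FPKM. With 1 adult sample left out 687 to 1923 genes were called, and with 1 E16.5 sample left out 43 to 112. Of the 10 members, 9 passed the filter and Cox6a2 did not. Cox8b was called higher, Cox6b1 and Cox7a2 were called lower and 6 were not called, with a median of −1.64. As the members were chosen on this contrast, nothing is read from these counts. Adult and E16.5 values did not overlap for 6 of the 9 (5 lower and Cox8b higher in adult), against 38.4% of all genes, 31.0% lower and 7.39% higher.

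**Figure D1:**
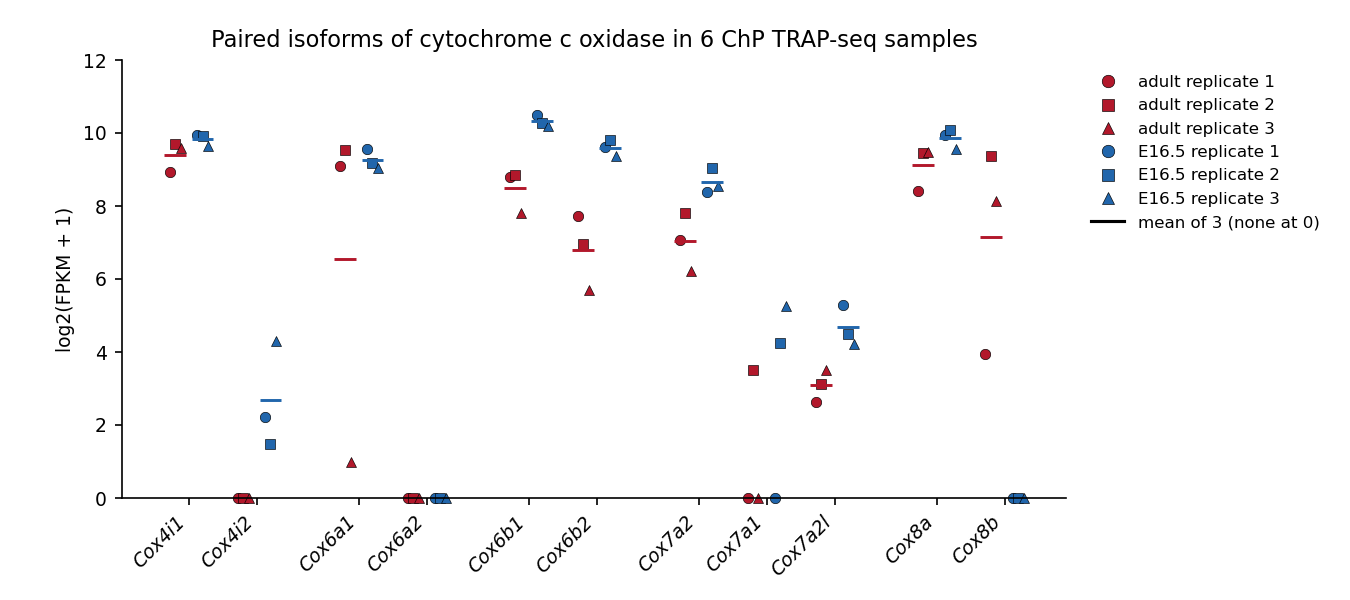
Level of each paired isoform, with Cox6b2 beside Cox6b1, in the 6 samples as log2(FPKM + 1) on the vertical axis. Red marks are adult and blue marks E16.5 samples, a marker shape is a replicate number, and a bar is the mean where no sample of the age is listed at 0. Cox8b lies at 14.4 to 662 FPKM in adult and at 0 at E16.5, Cox4i2 shows the opposite pattern at 1.81 to 18.8 FPKM, and adult replicate 3 stands apart for Cox6a1.

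COX8 is among the smallest subunits and spans the inner membrane. Cox8b, its muscle form, was listed at 14.4, 662 and 280 FPKM in adult replicates 1 to 3 and at 0 in each E16.5 replicate. All 3 adult samples were above all E16.5 samples, and the adult values spread 46.1-fold between the lowest and the highest. At the estimated depths and an effective transcript length of 160 bases, the adult values stood for about 8.78, 914 and 135 reads, and 3 reads at E16.5 would have given 1.46, 1.22 and 1.30 FPKM in replicates 1 to 3. These read numbers depend on the effective length assumed for such a short transcript and cover counting error only. The difference was 7.15 ± 1.28 (SE, n = 3 per age), a fitted value that depends on the added 1 and is no bound. Cox8b was 1 of 4 genes at 0 in each E16.5 sample but above 1 FPKM in every adult sample (0.0164% of 24350 names), second in adult level to Ttr, with Slc25a35 and Egfr after it. The 0 of Ttr at E16.5 may be a failed estimate, and whether that of Cox8b is one was not tested. Cox8b was singled out for this pattern, so its place among the 4 genes is a description.

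Cox8a, the broad form, was at 340, 698 and 710 FPKM in adult and at 976, 1092 and 755 FPKM at E16.5. Every adult value was below every E16.5 value, but the difference of −0.75 ± 0.34 (SE, n = 3 per age) was close to the median of all genes and was not called. Cox8a exceeded Cox8b in 6 of 6 samples. Cox8b made up 4.05%, 48.7% and 28.3% of the FPKM of the pair in adult replicates 1 to 3 (27.0% ± 22.3, SD, n = 3) and 0% in each E16.5 sample. Its mean adult share was 38.5% without replicate 1 and 16.2% without replicate 2. A share within a sample does not depend on how samples were scaled to each other. It does depend on the effective lengths assumed for these short transcripts. At 160 bases for Cox8b and 350 for Cox8a, adult replicates 1 to 3 held about 8.78, 914 and 135 reads of Cox8b. For Cox8a they held about 455, 2110 and 747 reads. The pair together was at 354, 1360 and 990 FPKM in adult and at 976, 1092 and 755 FPKM at E16.5, and these ranges overlapped.

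**Figure D2:**
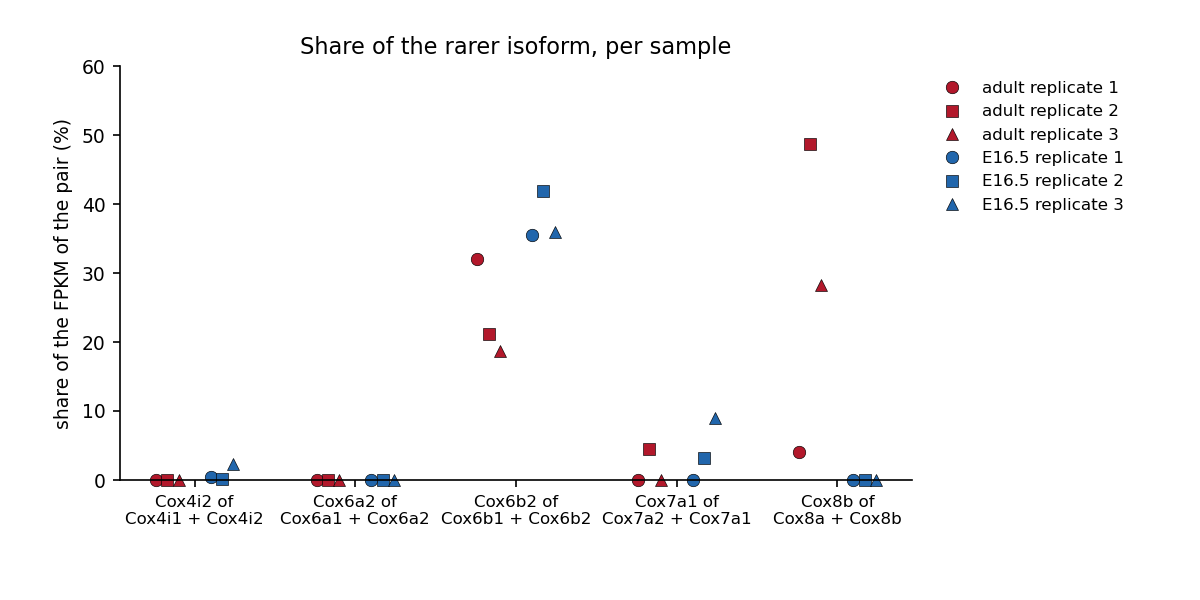
Share of the rarer or tissue-restricted isoform in the FPKM of its pair, in percent, in each of the 6 samples (red adult, blue E16.5, marker shape the replicate number). Cox8b takes 4.05% to 48.7% in adult and 0% at E16.5, Cox6b2 takes 18.7% to 32.0% in adult and 35.5% to 41.8% at E16.5, and the other 3 stay under 10%.

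COX4 is the largest nuclear-encoded subunit, and the complex is regulated by ATP through it. Cox4i1 was at 486, 832 and 771 FPKM in adult against 984, 965 and 799 FPKM at E16.5. The ages overlapped, and the difference was −0.43 ± 0.27 (SE, n = 3 per age), less negative than the median of all genes. Cox4i1 ranked at or above 99.6% of the detected genes in each of the 6 samples. It overlaps the genes Gm20388 on its own strand and Emc8 on the other, so part of its reads could belong to them.

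Cox4i2 was listed at 0 in all 3 adult samples and at 3.65, 1.81 and 18.8 FPKM at E16.5. Replicate 3 held most of the embryonic signal, 10.4 times the lowest value. In the shallower adult samples 3 reads correspond to about 1.47, 0.652 and 1.87 FPKM, against 1.81 FPKM as the lowest E16.5 value. Cox4i2 made up 0.370%, 0.187% and 2.30% of the COX4 pair at E16.5. It was 1 of 359 genes (1.47% of names) at 0 in each adult but above 1 FPKM in each E16.5 sample, and ranked 149 among them by level.

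COX6A takes part in the regulation of the enzyme by nucleotides. Cox6a2, the muscle form, was listed at 0 in all 6 samples. Cox6a1 was at 543, 735 and 0.991 FPKM in adult replicates 1 to 3 and at 749, 573 and 521 FPKM at E16.5. Adult replicate 3 was 741-fold below adult replicate 2, at about 1.25 reads, while Cox4i1 and Cox8a in the same library were at 771 and 710 FPKM. The difference of −2.71 ± 2.03 (SE, n = 3 per age) rested on this library: without it the difference was 0.057. For Cox6a1, 9.16% of the 50-base windows occur in 1 other gene.

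COX6B links the monomers of the dimeric enzyme on the side where cytochrome c docks. Cox6b1 was at 446, 459 and 224 FPKM in adult and at 1434, 1235 and 1172 FPKM at E16.5. All adult samples were well below the embryonic ones, with a ratio of E16.5 to adult means of 3.40 and a difference of −1.83 ± 0.32 (SE, n = 3 per age). Its partner Cox6b2, known as a testis form and not among the 10 members, was at 210, 124 and 51.4 FPKM in adult and at 788, 889 and 659 FPKM at E16.5. It fell by 2.80 ± 0.48 on the log2 scale (limma, adjusted p = 0.0167). Its share of the pair was 32.0%, 21.2% and 18.7% in adult and 35.5%, 41.8% and 36.0% at E16.5, without overlap. None of the 50-base windows of Cox6b1 (751) or Cox6b2 (1367) occurred in another gene. Cox6b2 stood above 83.8% to 98.7% of detected genes in adult and above 99.6% in each E16.5 sample, so a form known from testis was among the abundant ones in these samples.

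COX7A subunits lie at the surface where the complex meets its partners. Cox7a2, the broad form, was at 133, 223 and 73.5 FPKM in adult and at 334, 530 and 375 FPKM at E16.5, without overlap. Its difference was −1.64 ± 0.42 (SE, n = 3 per age), and the ratio of E16.5 to adult means was 2.89. Cox7a1, the muscle form, was listed at 0, 10.4 and 0 FPKM in adult and at 0, 17.8 and 37.1 FPKM at E16.5. It was detected in 1 adult and 2 E16.5 samples, and 3 reads in adult replicates 1 and 3 would have given 2.75 and 3.50 FPKM. Cox7a1 made up 4.45% of its pair in adult replicate 2, and 3.25% and 9.00% in E16.5 replicates 2 and 3. Cox7a2l was at 5.24, 7.72 and 10.4 FPKM in adult and at 38.2, 21.7 and 17.6 FPKM at E16.5. Its values did not overlap, with a difference of −1.58 ± 0.51 (SE, n = 3 per age), and 13.8% of its windows occur in 1 other gene.

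In each E16.5 sample Cox6b1 had the highest level of the members, followed by Cox8a and Cox4i1, whose order changed between replicates, and then by Cox6a1 and Cox7a2, with Cox7a2l, Cox7a1 and Cox4i2 far below. In adult replicates 1 and 2 Cox6a1, Cox4i1, Cox8a and Cox6b1 lay within a range of 340 to 832 FPKM. At E16.5, Cox8a (941 ± 171 FPKM) and Cox4i1 (916 ± 102 FPKM, SD, n = 3) lay within each other's spread, and the ranges of Cox7a2l, Cox7a1 and Cox4i2 overlapped. Cox8b moved most in the order: it stood above 61.1%, 99.6% and 98.4% of the detected genes in adult replicates 1 to 3. Summed over the 10 members, the level was 2555 ± 930 FPKM in adult against 4217 ± 454 FPKM at E16.5 (SD, n = 3), and 2236 ± 637 FPKM in adult without Cox8b.

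**Figure D3:**
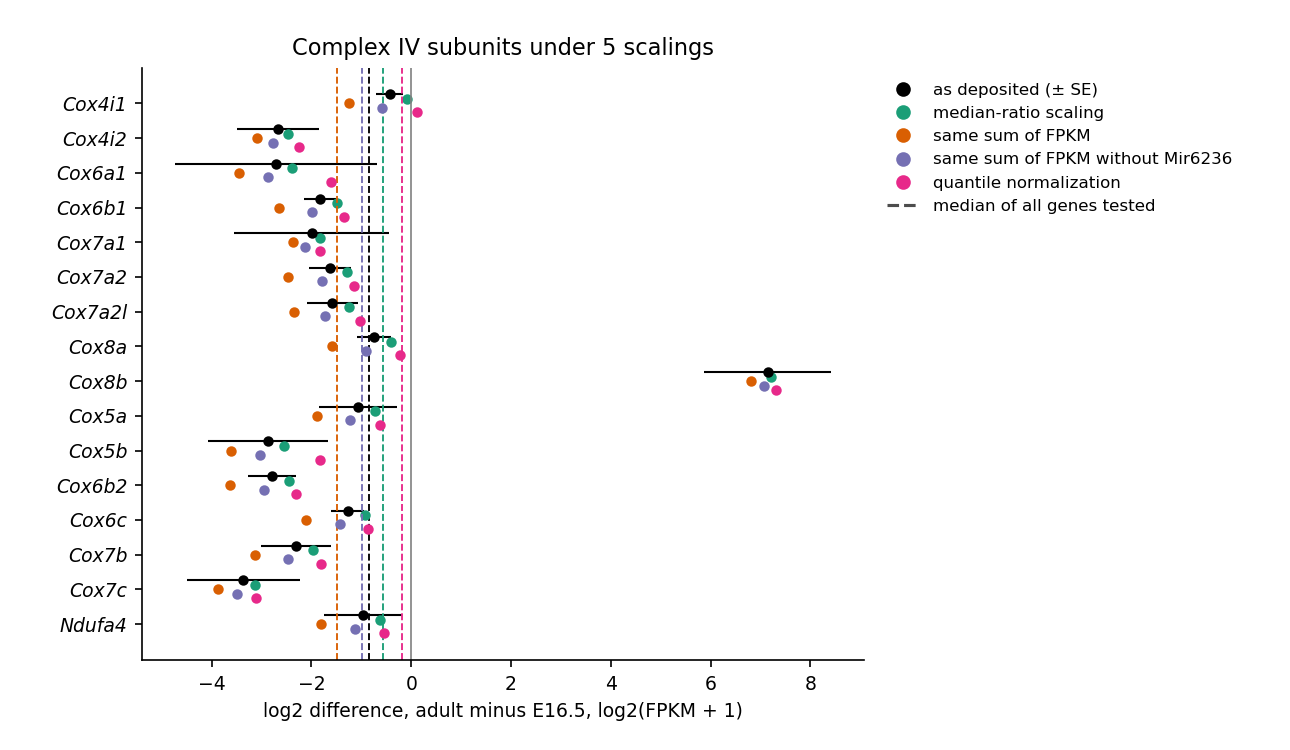
Difference between ages, adult minus E16.5 on log2(FPKM + 1), for the 9 members and 7 other subunits tested, under 5 scalings of the samples. Points are fitted differences, black bars the SE of the fit to the values as deposited, and dashed lines the median of all genes under each scaling. Cox8b lies between 6.82 and 7.32, but a factor per sample leaves its 0 at E16.5 at 0. Cox6b1 and Cox6b2 stay left of every scaling's own median, and Cox4i1 crosses 0 under quantile normalization.

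Scaling mattered for the members near the median. The median difference of all genes ran from −1.48 when samples were set to the same summed FPKM to −0.18 under quantile normalization. Relative to that median, Cox8b was 7.50 to 8.30 higher under the 5 scalings. Cox6b1 was at −1.18 to −0.91 and Cox7a2 at −0.98 to −0.72. Cox4i1 was above the median under each (0.22 to 0.49), although its own difference turned from −0.43 to 0.11 under quantile normalization. Cox8a lay on either side of the median, at −0.10 to 0.17. No stability is read from the range of Cox8b, because a factor per sample leaves its 0 at E16.5 at 0. Its own difference moved with the added constant, to 10.4 with 0.1 and 13.8 with 0.01.

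**Figure D4:**
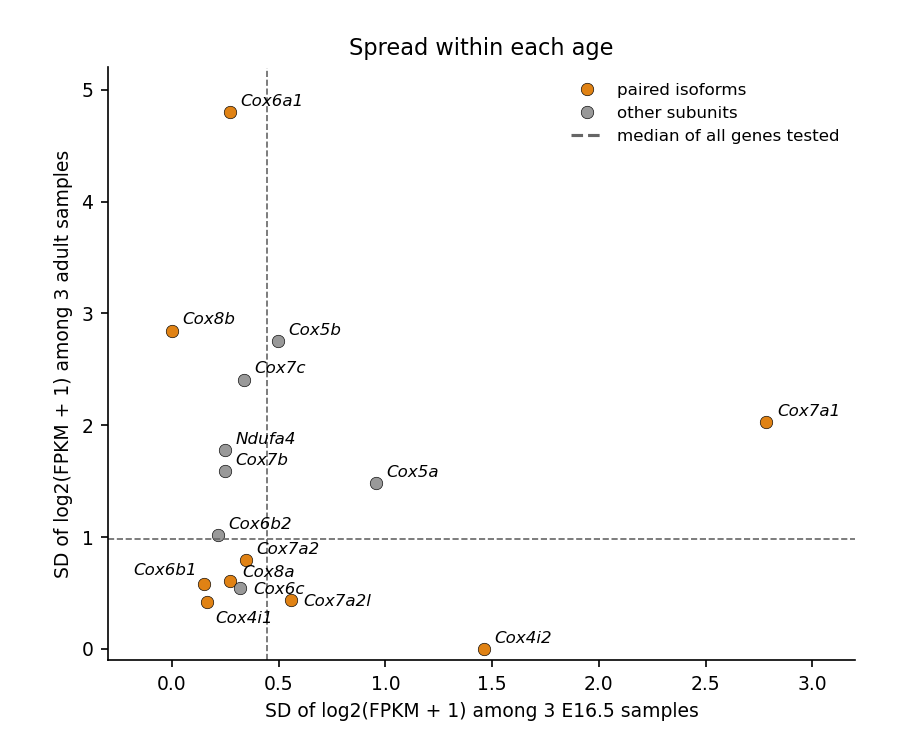
Spread within each age: the SD of log2(FPKM + 1) over the 3 E16.5 samples (horizontal) and over the 3 adult samples (vertical) for members (orange) and other subunits (grey). Dashed lines are the medians of all genes tested, 0.45 at E16.5 and 0.98 in adult, and Cox6a1 (4.80) and Cox8b (2.85) have the highest adult SD.

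Spread among the samples of an age differed widely between members. The SD among adult samples was 0.42 for Cox4i1, 0.44 for Cox7a2l, 0.58 for Cox6b1, 0.61 for Cox8a and 0.79 for Cox7a2, all below the adult median of 0.98. It was 2.03 for Cox7a1, 2.85 for Cox8b and 4.80 for Cox6a1. Where all 3 samples are listed at 0, as for Cox4i2 in adult and Cox8b at E16.5, the SD is 0 by construction and says nothing of spread. The SD of Cox8b was above that of 97.4% of genes and that of Cox6a1 above 99.8%. Among E16.5 samples, Cox7a1 (2.79) and Cox4i2 (1.46) spread more than 99.5% and 93.9% of genes, while Cox6b1 (0.15) and Cox4i1 (0.17) spread less than most. A range of at least 10-fold among the 3 adult samples was found for 54.2% of genes, against 14.8% among E16.5 samples. These shares include every gene listed at 0 in a sample of the age, and such listings were more frequent in the shallower adult libraries. They are therefore no measure for the range of Cox8b, which has no adult value of 0. Adult replicate 2, the deepest adult library, had the highest adult value for 11 of the 15 subunits above 0 in an adult sample, against 42.2% of all genes tested. Cox8b too was highest in adult replicate 2, and replicate 3, the shallowest, held more of it than replicate 1. The part of depth in this spread was not tested.

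The other complex IV subunits were lower in adult where they were called. Of 9 on the list, 7 were tested, 0 rose and 2 fell, with a median difference of −2.31, against 8.83% of all genes called lower. Besides Cox6b2, Cox6c was called: it was at 539, 1143 and 839 FPKM in adult against 1717, 2506 and 1697 FPKM at E16.5 and fell by 1.27 ± 0.33 (limma, adjusted p = 0.0482). Cox6c was called in 6 of 17 alternatives, with an adjusted p of 0.0113 to 0.171, and Cox6b2 in 14. All 7 lay below the median of all genes. Cox7c was at 0, 17.0 and 0 FPKM in adult against 19.8 to 31.8 FPKM at E16.5 (−3.36 ± 1.14, adjusted p = 0.0963), with 22.1% of its windows shared with other genes. Cox5b was at 24.4, 77.4 and 0.893 FPKM in adult against 85.9 to 167 FPKM at E16.5 (−2.87 ± 1.21, adjusted p = 0.154). Like Cox6a1, it was close to 0 in adult replicate 3. Cox7b was at −2.31 ± 0.71 (adjusted p = 0.0760), Cox5a at −1.07 ± 0.78 (adjusted p = 0.378) and Ndufa4 at −0.97 ± 0.78 (adjusted p = 0.416). The testis forms Cox7b2 and Cox8c were listed at 0 in all samples, unlike Cox6b2.

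Genes that assemble the complex or deliver its copper were called lower at about the share of all genes. Of 26, 24 were tested, 0 rose, 2 fell and 22 did not pass, with a median of −1.16, against 8.83% of all genes called lower and a median of −0.86. Coa6, which serves copper delivery to the COX2 subunit, was at 0 in all adult samples and at 19.0 ± 11.5 FPKM (SD, n = 3) at E16.5 (limma, adjusted p = 0.0140). Slirp, an RNA-binding partner of Lrpprc in keeping mitochondrial mRNA stable, was at 7.11, 53.4 and 13.6 FPKM in adult against 195, 183 and 172 FPKM at E16.5, and fell by 3.30 ± 0.65 (adjusted p = 0.0243). The most abundant of the list by mean FPKM over all 6 samples, Cox20 (−0.06 ± 0.56, adjusted p = 0.949) and Higd2a (−1.38 ± 0.64, adjusted p = 0.187), were not called. Of cytochrome c genes, 0 of 2 tested were called, with 0 at an unadjusted p under 0.05, and Cycs, cytochrome c itself, was at 2.14, 8.68 and 0 FPKM in adult and at 2.15 to 7.19 FPKM at E16.5. Of 15 tested nuclear regulators of respiratory genes, limma called 0, with 2 at an unadjusted p under 0.05. The most abundant by mean FPKM over all 6 samples were Yy1 (−0.65 ± 0.46, adjusted p = 0.367) and Ppargc1a, the coactivator of mitochondrial biogenesis (0.76 ± 0.48, adjusted p = 0.316).

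Of 16 genes for other mitochondrial proteins with tissue-restricted isoforms, 15 were in the table and 10 were tested, of which 1 was called, near the 10.9% of all genes called. In adult 0 rose, and Atp5g3, a form of the ATP synthase c-ring subunit, fell from 645 ± 97.6 to 190 ± 69.5 FPKM (SD, n = 3; −1.83 ± 0.34, limma adjusted p = 0.0218). Slc25a4, the adenine nucleotide carrier form of heart and muscle, was at 305, 359 and 120 FPKM in adult against 475 to 595 FPKM at E16.5 (adjusted p = 0.104). Ckmt2, the sarcomeric mitochondrial creatine kinase, was at 0 in all samples, as were Atp5g2 and the testis form Pdha2.

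Apart from Myh7, markers of the tissues for which Cox8b and Cox7a1 are known were at 4.21 FPKM or lower in every sample, and many at 0. Of 16 skeletal and heart muscle markers, 7 were at 0 in every sample (Myh1, Myh4, Tnni2, Tnnc2, Tnni3, Mb and Pvalb), and 2 were tested, with neither called. The summed level of the list was 22.1, 21.2 and 30.6 FPKM in adult against 14.4 to 20.1 FPKM at E16.5, of which Myh7, the slow cardiac myosin, held 15.2 to 30.5 FPKM in adult against 11.1 to 15.3 FPKM at E16.5. Of 7 brown fat markers, Cidea, Elovl3, Adipoq and Plin1 were at 0 in every sample and the sum was 2.50, 0 and 0 FPKM in adult replicates 1 to 3, all of it Dio2, and 2.41, 0 and 6.72 FPKM in E16.5 replicates 1 to 3. Ucp1, the uncoupling protein that defines brown fat, was listed at 0 in 5 samples and at 3.62 FPKM in E16.5 replicate 3, where Fabp4 was at 3.10 FPKM. For Cox4i2, of 11 pericyte and vascular smooth muscle markers Kcnj8, Higd1b and Tagln were at 0 throughout. Of the 5 tested, 3 had a negative difference and 0 were called. Cspg4 was at 3.90 to 5.54 FPKM in adult against 0.680 to 2.61 FPKM at E16.5. In adult replicate 2, Vtn was at 13.1 and Pdgfrb at 5.54 FPKM. The sum of the list was 6.01 to 27.9 FPKM in adult against 9.22 to 13.4 FPKM at E16.5.

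The summed levels of several further marker lists moved with age beside these results. Red blood cell markers summed to 0 to 6.49 FPKM in adult against 54.1 to 324 FPKM at E16.5, neuron and progenitor markers to 1.27 to 14.4 and 41.6 to 122 FPKM, mesenchyme and fibroblast markers to 13.3 to 21.9 and 57.7 to 69.3 FPKM, and endothelium markers to 0.489 to 9.51 and 12.7 to 40.4 FPKM. Most of the endothelium sum was Kdr, at 2.04, 7.75 and 0.435 FPKM in adult and 16.0, 12.3 and 36.7 FPKM at E16.5. Kdr was the 1 gene of that list tested and was not called, so the sum says little of the other endothelium markers. Macrophage markers summed to 0.0695 to 6.82 and 0.584 to 8.42 FPKM. Motile cilia markers summed to 207 to 393 FPKM in adult against 870 to 1080 FPKM at E16.5, with 4 of 6 tested genes called lower, among them Foxj1, whose promoter drives the Cre (48.7 ± 12.5 against 187 ± 28.3 FPKM, SD, n = 3, limma adjusted p = 0.0127). Of 15 housekeeping genes 3 were called lower and 0 higher. Over all genes 8.83% were called lower and 2.12% higher. The part of these differences in the lower values of Cox6b1, Cox7a2 and other subunits was not tested.

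The genes around Cox8b did not share its pattern. Psmd13, a proteasome subunit gene that ends 302 bases from the end of Cox8b on the opposite strand, was at 4.50, 8.29 and 21.4 FPKM in adult against 47.2, 69.5 and 55.0 FPKM at E16.5, and fell (limma, adjusted p = 0.0367). Sirt3 and Bet1l, next on that side, were not called. On the other side, Nlrp6 and Ifitm5 were at 0 in all samples and Ifitm2 was not called. By profile over the 6 samples, the tested genes most like Cox8b on log2(FPKM + 1) were Srebf2, Dvl3, Rfk, Dad1 and Ehd3, with Pearson r of 0.987 to 0.997 (n = 6). Srebf2, a regulator of sterol synthesis, was at 13.4, 28.2 and 26.7 FPKM in adult against 6.82 to 7.26 FPKM at E16.5. The genes most like Cox6b1, the called member with the most negative difference, were Tubb2a, Cfap45, Smarcb1, Spire1 and Slc6a15 (r of 0.996 to 0.998, n = 6). These correlations were picked as the highest of all genes over 2 ages and shared libraries, and are a description.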

How the data were processed

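Data were TRAP-seq FPKM of 3 adult and 3 E16.5 ChP samples, grouped by their labels. By the study's methods, the authors aligned single-end reads of 50 bases with STAR (2.4.0 in the submitters' processing notes) against mm10 and computed the deposited FPKM with Cuffquant of Cufflinks; the release of the mm10 gene annotation is not given in the sources used here. FPKM are scaled to mapped reads and transcript length, so short transcripts such as Cox8b depend on the effective length assumed. The labels and methods differ on how many mice a sample holds, and p-values measure the spread between these samples.

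The deposited FPKM were not rescaled. A gene was tested if its mean over the 6 samples exceeded 1 FPKM. The test was limma 3.58.1 (R 4.3.3, trend, no covariate) on log2(FPKM + 1), with Benjamini-Hochberg adjustment at 0.05. A fold on this scale understates changes of low genes. The study's count test was replaced because counts were not used here. Depth came from low-value steps in 2536 single-transcript genes whose effective length was taken as 200 bases under that of the transcript, with at least 5 values near 1 read, a requirement set after a first result on adult replicate 1. Coordinates and window sharing came from GENCODE vM21, promoters from RefSeq. The fit was tested on simulated data.

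The 10 members and all gene lists were chosen with earlier results of these data known. Named genes were the members, the other subunits, the called, most abundant or absent genes of each list, the neighbours of Cox8b, and the 5 genes most like Cox8b and most like the called member with the most negative difference (Cox6b1). Some genes the rule takes are given only in counts. Alternatives were other pseudocounts, filters, scalings and limma settings, a replicate block, and each sample left out.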

Additional observations from a re-analysis of the deposited data

How the results depend on the processing

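The differences of 3 uncalled genes turned: Cox4i1 to 0.11 under quantile normalization, Cox6a1 to 0.057 without adult replicate 3 (from −4.21 to 0.057 with each sample left out), and Ndufa4 to 0.045 without adult replicate 1 (from −1.61 to 0.045). All genes called numbered 1270, and 3357 (119 higher, 3238 lower) at the same sum of FPKM, 564 with the replicate block, and 43 to 1923 when each sample was left out in turn. The share called higher rose from 246 of 1270 to 348 of 1008 under median-ratio scaling and 464 of 917 under quantile normalization. Members called numbered 3, 7 at the same sum, 1 under quantile normalization and 1 with no trend, and 0 to 3 with a sample left out. Other subunits called numbered 2, 5 at the same sum, 1 with a pseudocount of 0.1 or 0.01, with no filter, with median-ratio scaling, with quantile normalization or with no trend, and 0 to 3 with a sample left out. Assembly genes called numbered 2, 1 with no filter, 9 at the same sum, and 0 to 5 with a sample left out. Without any 1 of the E16.5 samples, 43 to 112 genes were called in all. Apart from the fewer samples or other scaling itself, the cause was not tested. The isoform shares are ratios of deposited values within a sample, so a factor per sample, a filter or a test setting leaves them unchanged. Leaving out 1 of 3 samples moves their mean by less than 1 SD whatever the values, so no stability is read from this.

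Same-numbered samples of the ages did not deviate together (r of 0.0009, 0.044 and 0.015), so the replicate numbers are names; with the number as a block, members called were 3 and other subunits 3. Low adult depth limits Cox4i2, Cox7a1 and other values at 0.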
